A study of Caenorhabditis elegans with 8 samples.

Results

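The paired-end, unstranded libraries of the worm strains N2 and HC125 were compared gene by gene. Of 20541 genes listed, 15114 had a completed test and make up the comparison. Another 5420 were too low to be tested, 5 were marked as too deep and 2 had failed. N2 is the wild type of Caenorhabditis elegans. HC125 is read here as the strain that carries Psid-1::gfp, a transgene in which the promoter of sid-1 drives green fluorescent protein, because the series design names wild-type and Psid-1::gfp worms only. The labels give no further allele and no copy number or site of the transgene. Both strains were whole young adults staged by a timed egg lay, and polyadenylated RNA was prepared with the Illumina TruSeq kit without strand information. Each strain had 2 libraries here, 4 of the 8 in the series, and the other 4 are single-end stranded libraries of the same strains. The authors' deposited table pools the libraries of a strain into 1 FPKM value per gene (mapped fragments scaled to transcript length and library total), so the level of each library and the spread between libraries cannot be shown.

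The worm is covered by a cuticle that the epidermis secretes anew before each moult. Most of its protein is collagen, made by a large family of small genes that are switched on in waves within each moulting cycle, and several of them are known from mutants with short, rolling or blistered bodies. A thin apical matrix of lipocalin-related, zona pellucida and hedgehog-related proteins is laid down ahead of the collagens and shed with the old cuticle. The pharynx, the feeding pump in the head, has muscle of its own with myosins and troponins that body wall muscle does not use.

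A gene was called, and the words rose and fell are used, at a deposited q of 0.05 or less. Ratios are differences of log2(FPKM + 1), HC125 minus N2, unless a fold of FPKM is named, and the added 1 understates the change of low genes. Intervals of a fold are 95% intervals from the standard error that the authors' test statistic implies, whose median over genes was 0.66 on the log2 scale. No label says that the libraries came from separate cultures, so the spread between libraries that enters the deposited p-values may be technical. What else enters them is not given in the sources used here. The number of reads behind a value is unknown. Coordinates are 1-based and as in the deposited table, whose genome build is not given in the sources used here. Most genes named below follow the rule given with the processing. C52D10.3, dpy-4, dpy-14, dpy-17, lon-3, mlt-8, the noah, lpr, phat and fbxa genes, wrt-1, wrt-10, ZK180.6, irld-53, irld-35, H23N18.5, tnc-2, tni-4, pha-4, tbx-2 and R07B7.12 were picked on their values. Reads of a gene and of a gene on the opposite strand cannot be told apart in unstranded libraries, and close copies can share reads. In RNA from whole animals, fewer cells of a type and less RNA per cell cannot be told apart.

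Most genes had close levels in both strains. The median ratio over all tested genes was -0.03, the central 90% lay between -0.31 and 0.34, and 98.9% of genes differed by less than 2-fold on this scale. A higher value in HC125 was found for 6298 genes and a lower one for 8816. In the tails the balance was the other way, with 129 genes higher by 1 or more and 43 lower by 1 or more. In HC125 27 genes rose by the deposited q, 0.179% of those tested, and 5 fell, 0.0331%. With p recomputed from the deposited test statistic and the Benjamini-Hochberg adjustment the calls were 14 higher, 9 of them among the 27, and 4 lower, all among the 5; the 6 called genes without a finite statistic have no such p. At an unadjusted deposited p under 0.05 the numbers were 140 higher (0.926%) and 53 lower (0.351%). These 193 genes are fewer than exact p-values would give with no difference at all. The smallest p the authors' deposited table lists, 5e-05, was shared by 28 genes with q = 0.0270, so p does not rank them.

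**Figure D1:**
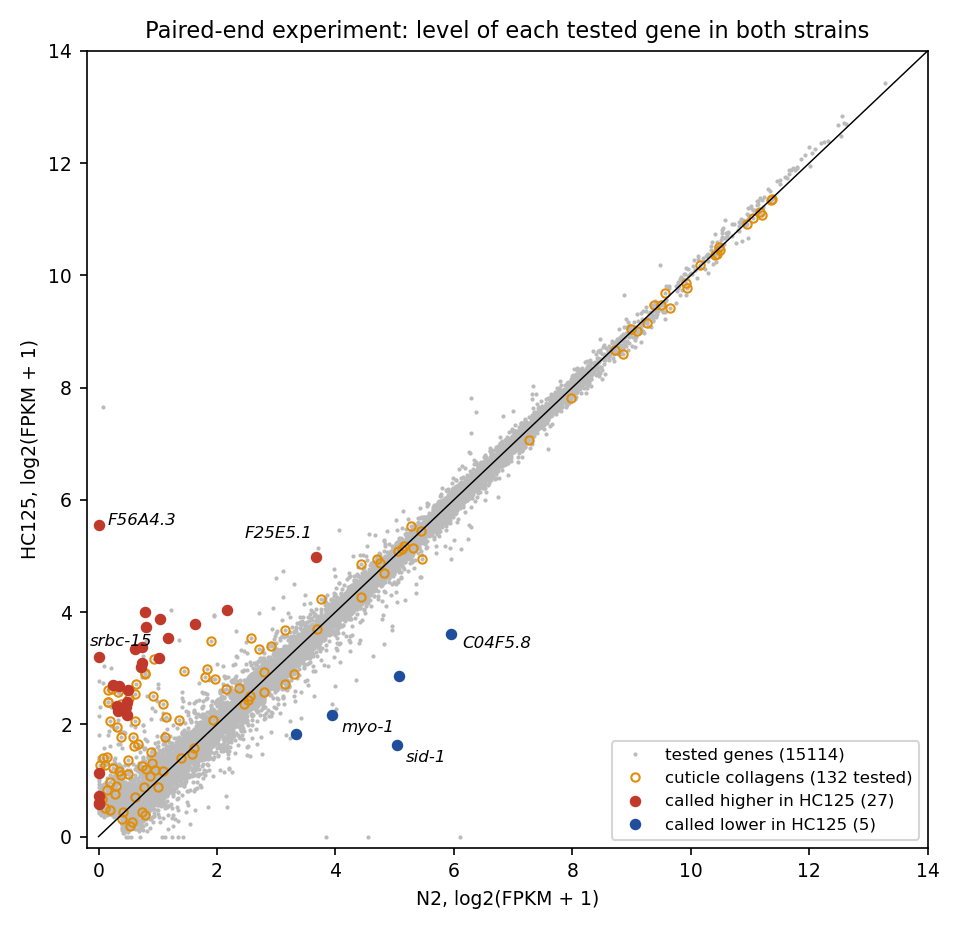
Level of each tested gene in N2 (horizontal) and HC125 (vertical) as log2(FPKM + 1), pooled over 2 libraries per strain, with the line of equal levels. Of the 27 genes called higher (red), 21 lie at the left edge, below 1 FPKM in N2, while the abundant cuticle collagens (orange rings) lie on the line.

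The genes that rose and those that fell had different levels in N2. The N2 value is part of the ratio behind each call, and genes low in both strains could not be tested. A low N2 level of genes that rose, and a high one of genes that fell, is thus partly built into the selection. Of the 27 that rose, 21 were below 1 FPKM in N2 and 6 of these were listed at 0 there. Their levels in HC125 ran from 0.496 to 45.8 FPKM. The 5 that fell had 9.12 to 60.8 FPKM in N2 and 2.11 to 11.2 FPKM in HC125. The same difference in level held at an unadjusted p under 0.05, where the 140 higher genes had a median of 0.319 FPKM in N2 and 2.68 FPKM in HC125. The 53 lower genes had a median of 14.4 FPKM in N2 and 3.62 FPKM in HC125.

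**Figure D2:**
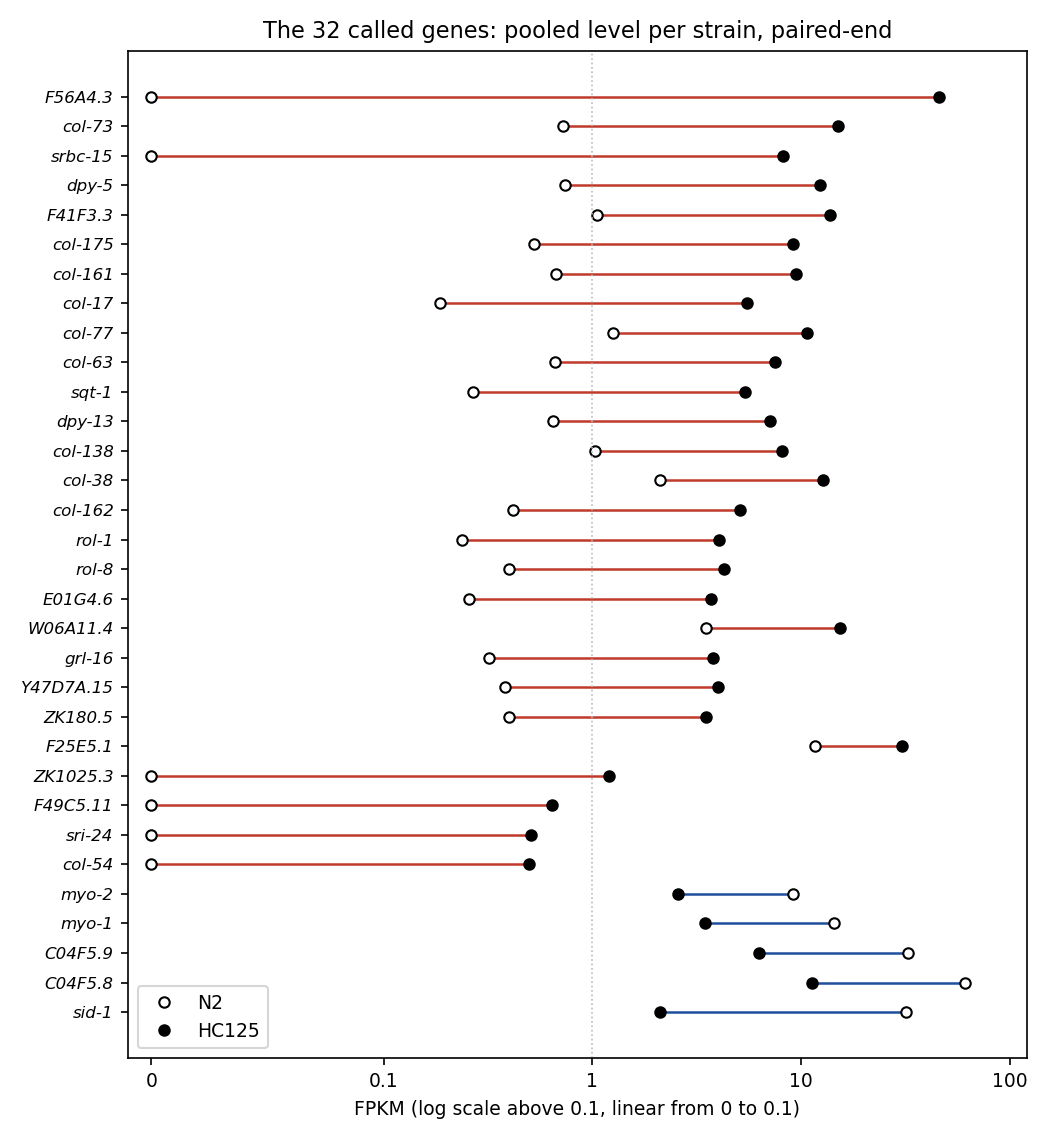
FPKM of the 32 called genes in N2 (open circles) and HC125 (filled circles), ordered by the log2(FPKM + 1) ratio, on an axis that is linear up to 0.1 and logarithmic above. Red lines join genes that rose and blue lines the 5 that fell, and most open circles of the red lines lie left of the dotted mark at 1 FPKM.

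The largest fall was that of sid-1, which encodes a channel for double-stranded RNA and whose promoter is in the transgene. sid-1 (WBGene00004795, chromosome V, 5119970 to 5126916, plus strand) went from 31.9 to 2.11 FPKM, and its divergent neighbours C04F5.9 and C04F5.8 kept 19.2% and 18.5% of their N2 levels. These 3 genes form the only run of neighbours within 10 kb that was lower at an unadjusted p under 0.05, among 10 runs in all. The 6 other members of the list of systemic RNA interference genes had ratios of -0.18 to 0.06 and were not called.

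Cuticle collagens were the main group that rose. Of 177 listed collagens 132 were tested, 14 rose and none fell, while 0.179% of all tested genes rose and 0.0331% fell. With p from the test statistic 9 were higher, 7 of them among the 14. At an unadjusted deposited p under 0.05 there were 41 higher, 31.1% of those tested, beside 0.926% of all tested genes, and none lower. The median ratio of the 132 was 0.48, with 94 higher and 38 lower. The members were listed with earlier results of these data known, so these counts are a description.

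Among the 14, 4 are known from mutants with altered body shape. dpy-5 (WBGene00001067, chromosome I, 5432158 to 5433054, minus strand), a collagen whose loss gives short, fat worms, went from 0.739 to 12.301 FPKM, a fold of 16.6 (4.96 to 55.8). dpy-13, another collagen of the short, fat class, had 0.646 and 7.08 FPKM, a fold of 10.95 (3.13 to 38.3). sqt-1, mutants of which roll or are short, had 0.269 and 5.39 FPKM, a fold of 20.04 (4.71 to 85.3). rol-8, named for rolling mutants, had 0.399 and 4.26 FPKM, a fold of 10.7 (3.39 to 33.7). In each of the 4 the N2 level was below 1 FPKM and the lower bound of the fold was above 3. These genes were called on the same values, so the bounds are a description.

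The other 10 that rose carry the general collagen name col. col-73 and col-17 lie 4523 bp apart on the minus strand of chromosome II. col-73 (4872098 to 4873127) went from 0.724 to 15.04 FPKM and had the largest ratio of any collagen, 3.22. col-17 (4866436 to 4867574) went from 0.186 to 5.51 FPKM, the largest fold of the called genes with a value above 0 in N2, 29.6 (6.38 to 138). Chromosome V holds col-161, which went from 0.671 to 9.40 FPKM, and col-162, which went from 0.416 to 5.11 FPKM. On chromosome II col-38 went from 2.10 to 12.7 FPKM and col-77 from 1.26 to 10.6 FPKM, and these were the best expressed of the group in N2. col-63 on chromosome I went from 0.664 to 7.49 FPKM, and col-175 on chromosome X from 0.527 to 9.10 FPKM. col-138 on chromosome IV went from 1.03 to 8.07 FPKM, and the annotation places C52D10.3 on the opposite strand across it, so the strand of these reads is unknown. col-54 was listed at 0 in N2 and at 0.496 FPKM in HC125. Chromosome III, with 2333 tested genes, carried none of the called genes, beside 0.179% of all tested genes that rose and 0.0331% that fell.

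The collagens that rose were the weakly expressed ones. Among the 28 tested collagens with a mean of both strains below 1 FPKM, 22 were higher in HC125, with a median ratio of 0.59. Between 1 and 3 FPKM 33 of 35 were higher (median 1.40), and between 3 and 10 FPKM 25 of 31 (median 1.14). From 10 to 100 FPKM 9 of 14 were higher (median 0.02), and at 100 FPKM or more only 5 of 24 (median -0.05). The other tested genes had medians of -0.05 to 0.02 in these ranges of level. None of the collagens at 10 FPKM or more had an unadjusted p under 0.05. The 2 most abundant, col-124 and col-140, had 2641 and 2624 FPKM, and 2624 and 2598 FPKM. col-19, a marker of the adult cuticle, had 1365 and 1321 FPKM. Summed over the 132 genes the collagens had 29157 FPKM in N2 and 28553 FPKM in HC125, a total that was lower in HC125.

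**Figure D3:**
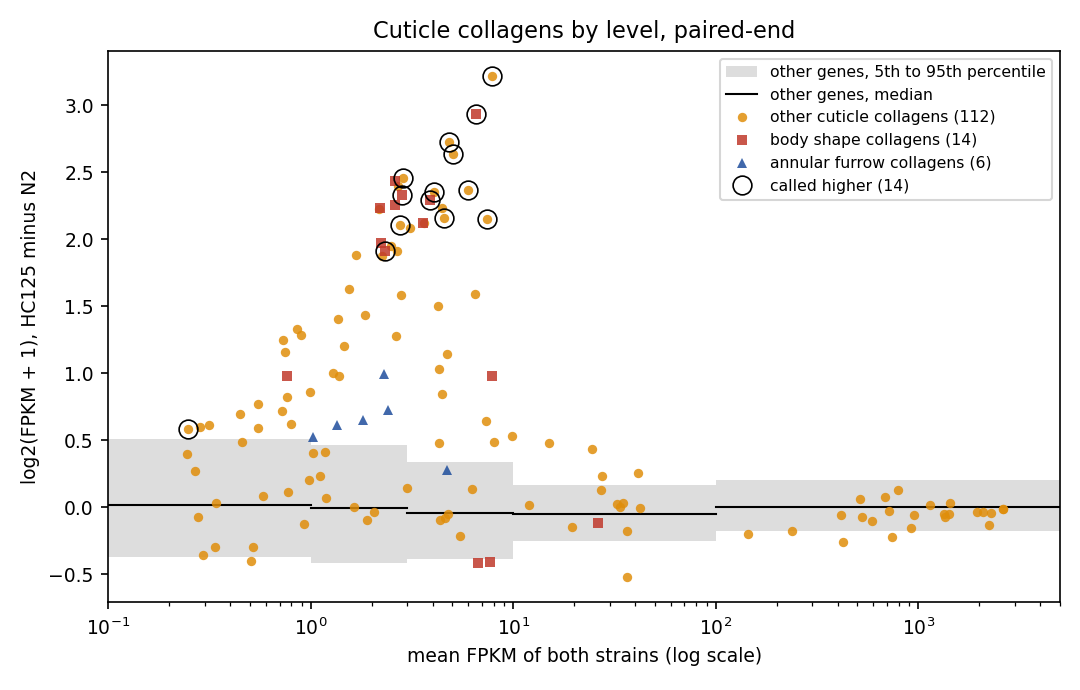
The log2(FPKM + 1) ratio of HC125 over N2 (vertical) of the 132 tested cuticle collagens by their mean FPKM in both strains (horizontal, log scale). Grey blocks and black lines give the 5th to 95th percentile and the median of all other tested genes in the same range of level. The 14 called genes are ringed and lie below 10 FPKM, and the collagens above 100 FPKM lie in the grey block or close to it.

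Other collagens of body shape had ratios as large as the called ones without a call. Of the 14 tested, 4 rose, beside 0.179% of all tested genes, and 7 were higher at an unadjusted p under 0.05, beside 0.926%. The median ratio was 2.05, with 11 higher and 3 lower. In the single-end libraries 12 were tested, 8 higher and 4 lower, with a median of 0.21, and at that p 2 were higher and 2 lower. Over these same 12 the median here was 2.05. rol-6, whose dominant allele is a common marker of transgenic worms, had 0.123 FPKM in N2 and 4.28 FPKM in HC125 (p = 0.0012 in the authors' deposited table). sqt-2 had 0.249 and 4.96 FPKM (p = 0.00025 in the authors' deposited table), and sqt-3, an essential cuticle collagen, 4.93 and 10.7 FPKM (p = 0.0125 there). By contrast dpy-4 had 0.717 and 6.48 FPKM with p = 0.172, lon-3 0.306 and 4.14 FPKM with p = 0.120, and bli-2 0.124 and 5.08 FPKM with p = 0.202 in the authors' deposited table. These 3 ratios, 1.98 to 2.44, were as large as those of the called genes, with implied standard errors of 1.47 for dpy-4, 6.76 for lon-3 and 8.79 for bli-2 on the log2 FPKM scale. Lower values were seen for dpy-14 (7.82 and 5.61 FPKM), dpy-17 (8.84 and 6.42 FPKM) and bli-6 (27.2 and 24.96 FPKM).

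The collagens of the annular furrows, the circumferential grooves of the cuticle, were higher with smaller ratios. All 6 tested had a higher value in HC125, with a median of 0.63, and none was called. dpy-7, the best known furrow collagen, had 1.21 and 3.40 FPKM (p = 0.0092 in the authors' deposited table). dpy-2 had 1.19 and 2.44 FPKM, dpy-9 1.56 and 3.24 FPKM, dpy-8 0.850 and 1.84 FPKM, and dpy-10 4.17 and 5.27 FPKM. In the single-end libraries all 6 were lower in HC125, with a median of -0.53, and dpy-7 was at 4.19 and 1.99 FPKM there.

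Genes of moulting and of the apical matrix were higher as well in the paired-end libraries, over a smaller range. Of 32 tested, 27 were higher and 5 lower, with a median of 0.16. At an unadjusted p under 0.05 6 were higher, beside 0.926% of all tested genes. In the single-end libraries 28 were tested, 4 higher and 24 lower, with a median of -0.22. At that p 1 was higher and 4 lower there. The 2 that rose here, beside 0.179% of all tested genes, were rol-1 and sqt-1, the latter already counted as a collagen. rol-1, named for mutants that roll, went from 0.239 to 4.02 FPKM, a fold of 16.9 (3.79 to 75.0). mlt-8 and mlt-9, found in screens for worms that fail to moult, had 2.23 and 5.63 FPKM and 0.267 and 1.09 FPKM (p = 0.0166 and p = 0.00475 in the authors' deposited table). noah-1 and noah-2, zona pellucida proteins of the moulting cuticle, had 5.43 and 6.28 FPKM, and 4.65 and 5.48 FPKM, with p above 0.5. egg-6 and xnp-1, the most abundant members, had 182 and 163 FPKM, and 50.1 and 48.5 FPKM.

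The lipocalin-related proteins of the apical matrix lie next to each other and had like ratios. lpr-3, lpr-6, lpr-5 and lpr-4 stand in this order on the plus strand of chromosome X, from 11057436 to 11066811. Their levels in N2 and HC125 were 1.24 and 2.77 FPKM for lpr-3, 0.580 and 2.00 FPKM for lpr-6, 0.598 and 2.09 FPKM for lpr-5, and 0.363 and 2.61 FPKM for lpr-4. Each had an unadjusted p under 0.05 without a call, while lpr-2 on chromosome IV had 1.42 and 1.37 FPKM with p = 0.952 in the authors' deposited table. The same 4 genes had lower values in HC125 in the single-end libraries, none at an unadjusted p under 0.05.

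Of the hedgehog-related and patched-related genes, a family of secreted proteins and sterol-sensing receptors that the epidermis uses, 51 of 85 were tested. grl-16 rose, from 0.319 to 3.80 FPKM, a fold of 11.9 (3.29 to 43.1), and was the only call. Over all tested genes 0.179% rose. Another 8 had an unadjusted p under 0.05, all higher. With grl-16 these were 9 of the 51, beside 0.926% of all tested genes. The median was 0.08 with 36 higher and 15 lower. In the single-end libraries 38 were tested, 16 higher and 22 lower, with a median of -0.03. At that p none was higher and 1 was lower there, beside 1.22% and 1.16% of all genes tested there. In the paired-end libraries wrt-4 had 0.143 and 2.05 FPKM, wrt-6 0.290 and 1.35 FPKM, and qua-1, which moulting needs, 0.558 and 1.67 FPKM. The abundant members grd-5 (184 and 187 FPKM) and the patched receptor ptc-1 (176 and 166 FPKM) had close values. wrt-1 and wrt-10 lie 52 bp apart on opposite strands of chromosome II, and had 0.729 and 1.97 FPKM, and 1.69 and 4.34 FPKM. Without strand their reads cannot be separated at the shared edge.

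Together the collagen, moulting and hedgehog-related lists held 213 tested genes, 16 of the 27 that rose and none of the 5 that fell. Over all tested genes 0.179% rose and 0.0331% fell. At an unadjusted p under 0.05 they held 54 higher genes (25.4% of the 213) and 0 lower. Without the collagens the rest of these lists held 81 tested genes, 13 of them higher (16.05%). Over the remaining 14901 tested genes the shares were 0.577% higher and 0.356% lower, so the tilt towards higher genes at this p was smaller outside these lists.

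Genes that modify collagen, time the moult or build the epidermis had close levels. None of 19 genes of collagen processing and cross-linking had an unadjusted p under 0.05, and their median was -0.01. The stage timing and moult regulators had a median of -0.05 over 20 genes, 6 higher and 14 lower, with no unadjusted p under 0.05. Among them the receptor nhr-23, which drives moulting cycles, had 49.2 and 43.5 FPKM, and lin-42, a relative of the clock gene period, 1.59 and 2.32 FPKM. The epidermis and seam list had a median of 0.01 over 17 genes, with the epidermal regulator lin-26 at 74.7 and 69.7 FPKM and dpy-7, given above, as the 1 member at that p. The BMP-like body size pathway had a median of -0.13 over 12 genes, 2 higher and 10 lower, and its ligand dbl-1 had 5.56 and 4.53 FPKM. The furrow damage and osmotic response genes had a median of 0.01 over 18 genes, and nlp-27, a peptide gene of that response, had 149 and 162 FPKM. The basement membrane genes, which include the collagens under the epidermis and around muscle, held no call: none of 18 had an unadjusted p under 0.05, 4 were higher and 14 lower, and the median was -0.07.

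Outside these lists 11 genes rose. F56A4.3 and the annotated pseudogene srbc-15, both on the left arm of chromosome V, had a listed 0 for N2, with 45.8 and 8.18 FPKM for HC125. F25E5.1 (WBGene00017782, chromosome V, 7465889 to 7471209, plus strand) was the best expressed of all that rose in N2, at 11.7 FPKM, and had 30.4 FPKM in HC125, a fold of 2.60 (1.46 to 4.64). F41F3.3 (WBGene00018297, chromosome V, 4647661 to 4648241) went from 1.05 to 13.8 FPKM, a fold of 13.1 (4.24 to 40.3). W06A11.4 (WBGene00021055, chromosome II, 4055939 to 4057653), annotated as a pseudogene, went from 3.49 to 15.4 FPKM, a fold of 4.40 (1.70 to 11.4). E01G4.6 went from 0.258 to 3.70 FPKM. Of these, srbc-15 is named as a chemoreceptor. The files and the annotation give the others no gene name that tells a function.

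Y47D7A.15, ZK180.5 and srbc-15 rose beside neighbours that were also higher. Y47D7A.15 went from 0.382 to 3.97 FPKM, and Y47D7A.13, 1694 bp away on the same strand of chromosome V, had 0.270 and 4.88 FPKM (p = 0.00025 in the authors' deposited table). ZK180.5 went from 0.397 to 3.48 FPKM, and ZK180.6, 3011 bp away on the same strand of chromosome IV, had 0.313 and 2.00 FPKM (p = 0.0027 in the authors' deposited table). irld-53, next to srbc-15 on the opposite strand, had 0.306 and 2.67 FPKM (p = 0.0019 there). Next to F56A4.3 on the opposite strand lies irld-35 (2456176 to 2458286). It had 0.0166 and 3.95 FPKM (p = 0.223 in the authors' deposited table), and 0.00278 and 1.28 FPKM in the single-end libraries. Both irld entries carry the name irld-35 in the annotation, and whether they share reads was not tested. In the single-end libraries the deposited p was 0.00025 for irld-53, which was higher in HC125, and 0.356 for Y47D7A.13. ZK180.6 was not tested in those. ZK1025.3, F49C5.11 and sri-24, the last named as a chemoreceptor, had a listed 0 for N2, with 1.198, 0.642 and 0.508 FPKM for HC125, and with col-54 they were the 4 called genes of lowest level. In all, 10 runs of neighbours within 10 kb held 26 of the 193 genes at an unadjusted p under 0.05. One of them, H23N18.5, C02E7.7 and C02E7.6 on chromosome V, had 1.01 and 5.61 FPKM, 1.33 and 15.4 FPKM, and 0.743 and 10.2 FPKM.

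Outside the sid-1 locus the genes that fell were myo-1 and myo-2. myo-1 (WBGene00002348, chromosome I, 7258921 to 7267079, minus strand) and myo-2 (WBGene00003514, chromosome X, 12468061 to 12475341, plus strand) encode pharyngeal myosin heavy chains. myo-1 fell to 24.1% of its N2 level (interval 0.125 to 0.465 of N2) and myo-2 to 28.1% (interval 0.140 to 0.564 of N2). tnt-4, a troponin T of the pharynx, had 19.4 and 5.92 FPKM (p = 0.00065 in the authors' deposited table). tnc-2, the pharyngeal troponin C, had 32.1 and 17.2 FPKM (p = 0.0281), and F47B7.7 had 4.92 and 1.69 FPKM (p = 0.0156 in the authors' deposited table). The pharyngeal troponin gene tni-4 had 75.5 and 46.02 FPKM, with p = 0.186 in the authors' deposited table. C53C9.2, a calponin-like gene that is not on the list, had 23.9 and 8.35 FPKM (p = 0.00015 in the authors' deposited table).

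Not all of the pharynx list was lower. Of 20 tested members 15 were lower and 5 higher, with a median of -0.26, where 8816 of all 15114 tested genes were lower. On the list 2 fell, beside 0.0331% of all tested genes. In all 5 were lower at an unadjusted p under 0.05, beside 0.351% of all tested genes, and none higher. The organ regulator pha-4 had 3.81 and 3.66 FPKM, and tbx-2 had 5.83 and 6.56 FPKM. The gland genes phat-3 and phat-4 had 5.58 and 4.38 FPKM, and 4.38 and 3.19 FPKM, while phat-6 had 1.65 and 3.93 FPKM. The light chain gene mlc-2 and the tropomyosin gene lev-11, both used in body wall muscle too, had 692 and 631 FPKM, and 589 and 503 FPKM.

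Body wall muscle had small ratios in the same direction. Of 25 tested sarcomere genes 23 were lower and 2 higher, with a median of -0.14, and none had an unadjusted p under 0.05. The stranded libraries had the other direction, with 18 of 24 higher and a median of 0.12. The lowest ratio here, of the troponin T gene tnt-3, was -0.39 (44.9 and 34.2 FPKM), and the actin gene act-4 had 903 and 798 FPKM. The body wall myosin unc-54 was the higher exception, at 168 and 208 FPKM, a log2 FPKM ratio of 0.31 with an implied standard error of 0.63.

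Among genes at 1 FPKM or more that were lower without a call, npl-4.1, a cofactor of the CDC-48 segregase, had 14.4 and 4.15 FPKM (p = 0.00035 in the authors' deposited table). ZC449.5 had 7.98 and 2.51 FPKM, F23F12.12 27.3 and 9.76 FPKM, F13C5.5 14.98 and 5.40 FPKM, and C45E5.4 8.43 and 2.38 FPKM, each with an unadjusted p under 0.005. In the intestine list fat-5, a fatty acid desaturase, had 9.71 and 4.94 FPKM (p = 0.0273), and lys-7, a lysozyme, 106 and 65.3 FPKM (p = 0.0312 in the authors' deposited table). These 2 were the only members of 29 at an unadjusted p under 0.05, beside 0.351% of all tested genes that were lower at it. The list's median was -0.06.

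**Figure D4:**
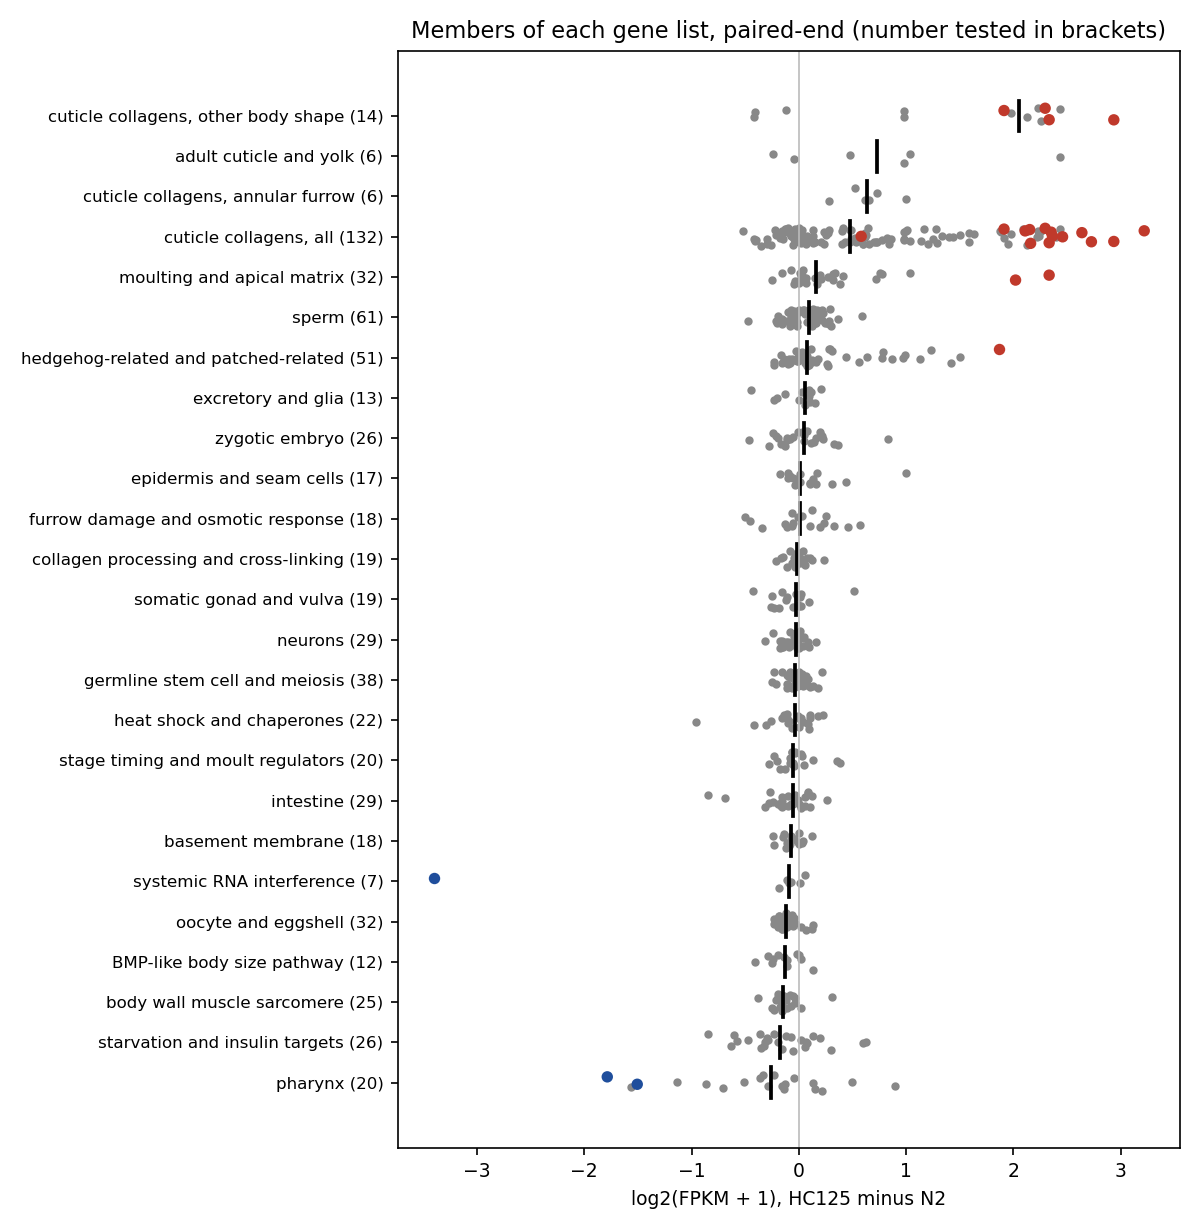
The log2(FPKM + 1) ratio of HC125 over N2 of each tested member (points) of each gene list, with the list's median as a black bar and the number tested in brackets; called genes are red (higher) or blue (lower). The 3 cuticle collagen lists and the adult cuticle list stand to the right, the pharynx list has the lowest median, -0.26, and most other medians lie within 0.2 of 0.

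Germline and embryo lists held no call. The oocyte and eggshell genes were lower in 28 of 32 members, with a median of -0.12; the eggshell proteoglycan gene cpg-2 had 1382 and 1211 FPKM, and pos-1, an RNA-binding regulator of the embryo, 922 and 856 FPKM. The genes of germline stem cells and meiosis had a median of -0.03 over 38 genes, with gld-1 at 648 and 612 FPKM and the helicase gene glh-1 at 219 and 253 FPKM. Sperm genes were higher in 39 of 61 members, with a median of 0.09 and no unadjusted p under 0.05. In the single-end libraries 51 sperm genes were tested, 46 higher and 5 lower, with a larger median of 0.81. At an unadjusted p under 0.05 24 were higher there, beside 1.22% of all genes tested there, and none lower. Among sperm genes the translation factor gene ife-1 had 345 and 403 FPKM in the paired-end libraries. The zygotic embryo list had a median of 0.05 over 26 genes, and sdz-24 in it had 22.6 and 41.1 FPKM (p = 0.0274 in the authors' deposited table).

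The remaining tissue and stress lists held no call either. Neurons had -0.03 over 29 genes, with the synaptic gene snb-1 at 170 and 163 FPKM. The excretory and glia list had 0.06 over 13 genes, with the water channel aqp-8 at 65.1 and 47.5 FPKM, and the somatic gonad and vulva list -0.02 over 19 genes. Heat shock genes and chaperones had -0.04 over 22 genes, with hsp-1 at 1108 and 1258 FPKM. The starvation and insulin target list had -0.17 over 26 genes, 9 higher and 17 lower, with acdh-1 at 1992 and 1620 FPKM. Of the adult cuticle and yolk list, 5 yolk genes were marked as too deep and 6 members were tested, 5 of them collagens, with a median of 0.73; vit-1 had 1859 and 1572 FPKM. Of the mitochondrial genes only ctb-1 was matched by name, at 4214 and 4646 FPKM.

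Gene names group genes into families by their leading letters. Of these, 112 families had 10 or more tested members, 3019 genes in all, and 37 had a median ratio above 0 and 75 below 0. Called genes were found in 3 of them: col with 10, dpy and grl. The histone family had the highest median, 0.28 over 36 tested members, 24 higher and 12 lower, and none was called. his-64 had 6.75 and 15.8 FPKM and his-45 1.66 and 4.55 FPKM (p = 0.0416 and p = 0.0405 in the authors' deposited table). Histone genes lie in near-identical copies and most of their RNA is not polyadenylated, so how reads were shared out between copies is unclear. The abundant replacement histones his-72 and his-74 had 220 and 212 FPKM, and 248 and 272 FPKM. After histones came col with a median of 0.26 over 112 genes, fipr with 0.16 over 19 and grl with 0.14 over 12. In the single-end libraries 16 histone genes were higher and 20 lower, with a median of -0.01. The medians there were -0.06 for col, 0.02 for fipr and 0.05 for grl.

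Genes of translation were higher by small and even amounts. All 30 tested rps genes and 43 of 45 rpl genes, which encode the proteins of the ribosome's subunits, had a higher value in HC125, each family with a median of 0.13. All 13 eif genes, translation initiation factors, were higher too, with a median of 0.13. None of them had an unadjusted p under 0.05. Summed FPKM went from 63353 in N2 to 69592 in HC125 for rps and from 94081 to 104374 for rpl. rps-24 had 4089 and 4991 FPKM, rpl-38 6034 and 7305 FPKM, and eif-1.A 481 and 542 FPKM. In the single-end libraries 12 of 30 rps, 16 of 45 rpl and 3 of 13 eif genes were higher, with medians of -0.02, -0.05 and -0.07.

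The families of lowest median were klp (-0.17), gcy, madf, gei, pqn, asp, taf and unc, none with a called gene. The kinesin-like klp genes were lower in 13 of 14 members; klp-15 had 99.1 and 83.4 FPKM. The unc genes, found through uncoordinated movement and many of them used in nerve and muscle, were lower in 75 of 94 members with a median of -0.11; unc-33 had 29.1 and 23.2 FPKM. The aspartyl protease family asp had a median of -0.11 over 13 genes, with asp-13 at 301 and 239 FPKM. Among the pqn genes, whose proteins are rich in glutamine and asparagine, 37 of 47 were lower, and pqn-94 had 15.9 and 7.59 FPKM (p = 0.0741 in the authors' deposited table).

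Chromosomes differed little. The median ratio was -0.02 to -0.03 on each autosome and -0.06 on X, where 755 of 2146 tested genes were higher. Over all tested genes 0.179% rose and 0.0331% fell. Of the genes tested on each chromosome, 10 of 2679 rose on II, 8 of 2927 on V and 5 of 2449 on I. On IV 3 of 2568 rose, on X 1 of 2146 and on III none of 2333. Those that fell were 3 on V, 1 on I and 1 on X. Whether chromosomes differ in these shares was not tested. The 12 mitochondrial genes had a median of 0.02. By biotype, 218 annotated pseudogenes were tested, with a median of -0.01. Of these 2 rose, W06A11.4 and srbc-15, beside 0.179% of all tested genes.

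Large ratios were often without a small p. Of the 129 genes higher by 1 or more, 76 had an unadjusted p under 0.05, and of the 43 lower by 1 or more 25 had one. At 1.5 or more, 27 higher genes had a p of 0.05 or above in the authors' deposited table, 8 of them cuticle collagens, against 4 lower genes. The most extreme was R07B7.12 (WBGene00011096, chromosome V, 12089073 to 12091812, plus strand), which had the largest ratio of all tested genes, 7.58, from 0.0549 to 200.4 FPKM, and p = 0.246 in the authors' deposited table. Its single-end value was 0.00665 FPKM in N2 and a listed 0 in HC125. With pooled values it cannot be seen whether 1 library of HC125 holds that signal.

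Genes listed at 0 in a single strain were about as many in each over all genes, but not among the tested ones. N2 was at 0 for 579 genes that had a value in HC125, and HC125 was at 0 for 550 that had one in N2. At 1 FPKM or more in the other strain there were 19 and 16. Among tested genes 33 were at 0 in N2 and 12 in HC125, and of the called genes 6 were at 0 in N2 and none in HC125. After F56A4.3 and srbc-15, the highest values in HC125 against a listed 0 in N2 were those of Y105C5A.10 (6.82 FPKM, not tested) and F55H2.8 (5.86 FPKM, p = 0.156 in the authors' deposited table). In the other direction stood T13A10.64 (67.7 FPKM in N2), F11A6.15 (52.1 FPKM), Y50D4B.1 (22.4 FPKM), Y73C8B.9 (22.4 FPKM) and C05A2.4 (13.4 FPKM). Only Y50D4B.1 among these 5 had an unadjusted p under 0.05, and none of them was at 1 FPKM or more in N2 in the single-end libraries.

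The single-end stranded libraries give a second measurement of the same strains, made on another library preparation system. Of the 27 genes that rose, 21 were tested there, 19 were higher and 11 were higher at an unadjusted deposited p under 0.05, beside 1.22% of all 13150 genes tested there. Of the 14 collagens that rose 12 were tested there and all 12 were higher, 7 of them at that p, with ratios of smaller size (median 0.97 against 2.34 for the 14). Of the 5 genes that fell 4 were lower there, 3 of them called. Called in both experiments were sid-1, C04F5.8, C04F5.9, F56A4.3 and srbc-15, each with q = 0.0411 in the authors' deposited table of the single-end libraries. dpy-5 had 0.492 and 1.87 FPKM there and col-161 0.493 and 3.43 FPKM. F25E5.1 had 7.58 and 7.07 FPKM there, W06A11.4 2.18 and 1.72 FPKM, myo-1 4.591 and 4.0997 FPKM and myo-2 3.34 and 3.40 FPKM. Both myosin genes had an unadjusted p above 0.4 there.

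For the wider set at an unadjusted p under 0.05, 97 of the 140 higher genes were tested in the single-end libraries. There 64 were higher and 33 lower, with 23 higher (23.7%) and 6 lower at that p. Without collagens 12 of 63 (19.05%) were higher at that p. Of the 53 lower genes 44 were tested there, 36 were lower, and 15 (34.1%) were lower at that p, beside 1.16% of all genes tested there. Over the members tested in both experiments, the 115 collagens had a median of 0.27 here and -0.07 in the stranded libraries, the 28 moulting genes 0.11 and -0.22, and the 20 pharynx genes -0.26 and -0.03.

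**Figure D5:**
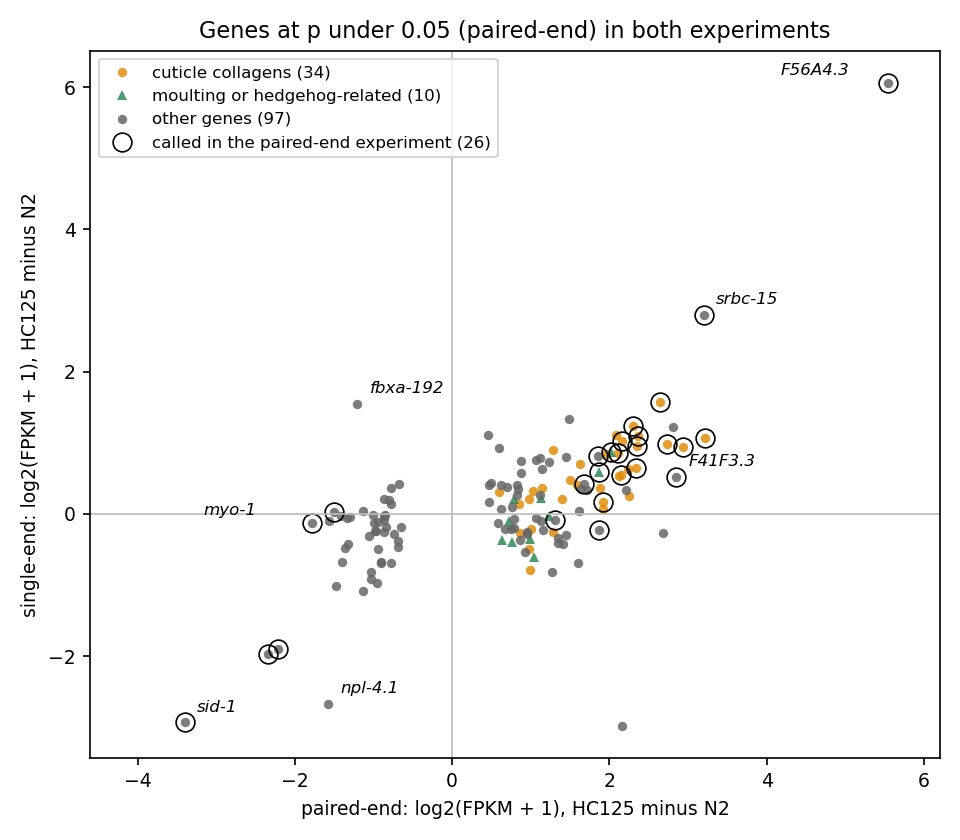
Ratio of HC125 over N2 as log2(FPKM + 1) in the paired-end (horizontal) and single-end (vertical) libraries for the genes at an unadjusted p under 0.05 in the first and tested in both. Called genes are ringed; all 12 collagens that rose lie above 0 on the vertical axis, and myo-1 and myo-2 lie near 0.

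The difference between the experiments was tested for each gene on the implied errors (z test, two-sided, a normal approximation). Of 12921 genes, 41 had an unadjusted p under 0.05 and 1, fbxa-192, passed the Benjamini-Hochberg adjustment. With exact errors about 646 genes would have p under 0.05 with no difference at all, so the implied errors are wider than the spread of these differences and the test had little power. For myo-1 the log2 FPKM ratio was lower by 1.89 in the paired-end libraries (SE 0.58, difference of -1.89), for F41F3.3 higher by 3.13 (SE 1.07) and for F25E5.1 higher by 1.48 (SE 0.52), each with an adjusted p of 1.00. For dpy-5 the difference was 2.13 (SE 1.35) and for sid-1 0.06 (SE 0.75). A p that misses the threshold does not show that the experiments gave the same ratio.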

How the data were processed

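RNA of N2 and HC125 worms was sequenced in 2 paired-end libraries per strain. The authors' deposited table gives 1 FPKM per gene and strain, pooled over the libraries, with columns laid out as by Cuffdiff per the file headers. TopHat2 2.0.1 and Cufflinks 2.2.1 are named per the submitters' processing notes; settings and genome build: not given in the sources used here. The deposited p-value and q-value of each gene, and the test statistic (a score), are the authors' own, and recomputing the Benjamini-Hochberg adjustment gave their q. From these values log2(FPKM + 1) ratios, the standard error that the ratio and the statistic imply, and list and family medians were computed (Python 3.11.15, numpy 2.4.6, pandas 2.3.3, scipy 1.17.1, matplotlib 3.10.9), after a test of the code on simulated data. Strand, biotype and overlaps came from the Ensembl annotation of WBcel235, which held 20194 of the IDs. Depth is unknown.

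Of 628 gene names in 25 lists, 604 were found. The lists, the genes and the comparison were chosen with earlier results of these data known. Named by rule were sid-1 with its 2 neighbours, every called gene, per list or family the 4 members of lowest p and the 2 of highest mean, 8 uncalled genes per direction of largest ratio at an unadjusted p under 0.05 and a mean of 1 FPKM or more, and 5 genes per direction listed at 0 in 1 strain. Other q thresholds, minimum ratios, filters, pseudocounts, centring and p from the statistic were tried. Promoter and protein sequences were not analysed here.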

Additional observations from a re-analysis of the deposited data

Results flagged for a closer look

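fbxa-192, a gene of the F-box A family, had a ratio that differed between the experiments. Its level went from 30.02 FPKM in N2 to 12.4 FPKM in HC125 by the paired-end libraries, and from 6.55 to 21.05 FPKM by the single-end ones. The log2 FPKM ratio was lower in the paired-end libraries, by a difference of -2.96, with an adjusted p of 0.00572 (z test on the implied errors, two-sided, Benjamini-Hochberg over 12921 genes). The libraries differ in preparation, strand and read layout, which cannot be told apart here, and each value is 1 pooled level per strain.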

How the results depend on the processing

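Of the 27 higher, 5 lower and 14 collagen calls, a q of 0.1 or less gave 35, 6 and 18. Adjusting over genes at 1 FPKM or more gave 24, 5 and 13, as did asking for a ratio of at least 2. A q of 0.01 or less gave 0, 0 and 0, since the smallest q in the authors' deposited table was 0.0270; an unadjusted p under 0.05 was met by 140, 53 and 41. With p from the test statistic there were 14 higher genes, 4 lower genes and 9 collagens; 45 tested genes have no finite statistic. The median of the body shape collagens was 3.20 with a pseudocount of 0.1 and 0.82 with 5, and was the 1 median of 138 that moved by more than its allowance under each. Centring on the median of -0.03 over 13031 genes changed the sign of 21 of 138 medians, all of them between -0.03 and 0 before it, and of 9 of 257 gene ratios. No paired analysis was possible because the deposited values are pooled per strain, and for the same reason leaving out a replicate was not run. Depth, and so counting error, is unknown.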

Other observations

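Several genes outside the lists were higher or lower at an unadjusted p under 0.05 without a call; all those given here were picked on their values. The pud genes on chromosome V had higher values in HC125 in 6 of 6 tested members, with a median ratio of 0.62. pud-1.2 had 715 and 1162 FPKM (p = 0.0425 in the authors' deposited table), and pud-3 469 and 805 FPKM with p = 0.0634 there. pud-3 and pud-4 share 1 locus in that table, and pud-1.1 and pud-1.2 are near-copies, so reads between them may not separate. aex-5, a proprotein convertase gene needed for the defecation cycle, had 12.03 and 34.4 FPKM, and 6.62 and 12.25 FPKM in the stranded libraries. haf-6, an ABC transporter gene, had 7.67 and 25.5 FPKM, but 28.4 and 29.05 FPKM in the stranded libraries.

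Among abundant genes with lower values, asfl-1, which encodes a histone chaperone, had 77.1 and 44.6 FPKM, and 70.5 and 43.2 FPKM in the stranded libraries. tag-10 had 60.8 and 29.9 FPKM, against 56.4 and 55.7 FPKM in the stranded libraries. Of dao-2 the values went in opposite directions, with 5.56 and 14.8 FPKM in the paired-end and 102.4 and 57.6 FPKM in the stranded libraries.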
